A study of Homo sapiens with 3 samples.

Results

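CXCR4, ACKR3 and CXCL12 form a chemokine axis, and CXCR4 has been reported as a direct target of miR-146a. The 3 genes, out of 19775 with a probe set of their own, are read by 8 probe sets annotated to 1 of them and to no other gene, out of 54613 probe sets besides controls: 3 for CXCR4, 3 for ACKR3 (older name CXCR7) and 2 for CXCL12. All 8 were taken by annotation alone and are described separately. The cells were HT29, a long-established human line of colorectal adenocarcinoma origin, grown in serum-containing medium and transduced by lentivirus with a miR-146a expression construct (2 arrays, labelled as replicates) or with an empty vector (1 array). Separate cultures, clones or pools, and the promoter of the construct are not stated in the labels. The spread behind each p-value is therefore that of these arrays and may be technical. The only comparison is miR-146a against the empty vector, and its question here is whether the transcripts of this axis differ with the microRNA.

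CXCL12 is a chemokine made mainly by stromal and endothelial cells. It binds CXCR4, a receptor coupled to inhibitory G proteins that guides migrating cells, and ACKR3, an atypical receptor that binds beta-arrestin, does not signal through G proteins in the usual way and clears CXCL12 from the surroundings. In colorectal cancer CXCR4 is known for its part in spread to the liver and lungs. A microRNA lowers the level or the translation of transcripts that pair with its seed, so a fall of the transcript is the array readout of a direct target, while an effect on translation alone would not be seen on an array.

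The mature microRNAs of the miR-146 family are shown because the seed decides which transcripts can pair. The sequences are from RefSeq (GRCh38.p14), written 5′ to 3′, with the seed (bases 2 to 8) in capitals. The labels name miR-146a without an arm, so both arms of its hairpin are given, with miR-146b for comparison.
hsa-miR-146a-5p, chr5:160485372-160485393, plus strand: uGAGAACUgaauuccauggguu
hsa-miR-146a-3p, chr5:160485408-160485429, plus strand: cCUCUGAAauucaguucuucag
hsa-miR-146b-5p, chr10:102436520-102436542, plus strand: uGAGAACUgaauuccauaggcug
The 5p arms of miR-146a and miR-146b share their first 17 bases and so the whole seed, and a transcript site that pairs with it reads AGUUCUC. In all, 3 mature human microRNAs of the RefSeq table carry this seed, the other one being hsa-miR-7153-5p. The 3p arm of miR-146a has a different seed that no other mature sequence of the table shares. The transcript sequence of CXCR4 was not analysed here, so no site is shown in it.

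The arrays had median log2 values of 5.14 and 5.12 (miR-146a 1 and 2) and 5.13 (vector). Between the miR-146a arrays the differences of the 27306 probe sets above the median signal had an SD of 0.13, against 0.22 and 0.21 for miR-146a 1 and 2 set against the vector. The probe sets annotated to MIR146A target the host transcript rather than the mature form, so they are no check of the labels. They had log2 values of 5.03 and 5.23 in the miR-146a arrays, against 4.82 with the vector (238225_at), and 2.79 and 2.82 in the miR-146a arrays, against 2.96 with the vector (232504_at). At the 5′ end the controls for ACTB and GAPDH were lower in the miR-146a arrays than in the vector array, by -0.18 to -0.32 on the log2 scale, and their 3′ probe sets differed by -0.03 to 0.05. The part of this 5′ difference in the results below was not tested.

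No CXCR4 probe set read lower in the miR-146a arrays. All 3 were above the median signal and all 6 readings, 3 probe sets in 2 arrays, were higher than the vector. Of the 27306 probe sets above the median, 36.0% were higher in both miR-146a arrays than in the vector, and 33.1% were lower in both. The sizes differed between the probe sets, from a fold of 1.62 to a fold of 1.08.

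Probe set 217028_at, the CXCR4 probe set with the strongest signal, had log2 values of 9.67 and 9.72 in the miR-146a arrays, against 9.00 with the vector. Both miR-146a values lay above the vector, and the gap between them, 0.05, was small beside the distance to it. The mean log2 difference was 0.69, a 1.62-fold higher signal (1.59-fold in array 1 and 1.65-fold in array 2). In limma this difference had an SE of 0.0376 and an unadjusted p of 0.0106, and did not pass the threshold of 0.05 after Benjamini-Hochberg adjustment over all probe sets (adjusted p = 0.116). The 95% interval of the limma estimate ran from 0.46 to 0.93. Limma called 0 of all probe sets (0.0% higher and 0.0% lower), while 10.0% of them had an unadjusted p under 0.05 and were higher. Above the median signal, 0.447% of probe sets were at least 1.5-fold higher in both arrays, this probe set among them, and 73 probe sets, itself included, were at least as high in the lower of their 2 differences. With the variance prior taken from the probe sets above the median whose miR-146a values differ, a setting chosen after earlier results were known, 217028_at passed in limma (adjusted p = 0.000454), as did 4.14% of those probe sets as higher.

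Probe set 209201_x_at had CXCR4 log2 values of 7.62 and 7.71 in the miR-146a arrays, against 7.33 with the vector. Both miR-146a values were again above the vector, by 0.29 and 0.38. The mean difference of 0.33, or 1.26-fold, did not pass in limma (adjusted p = 0.298), and its 95% interval ran from -0.09 to 0.76. With the prior from unequal replicates it did not pass either. Its adjusted p in limma was 0.215 with that prior over all probe sets. Above the median, the setting chosen after earlier results were known, it was 0.0507.

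Probe set 211919_s_at read 7.49 and 7.40 in the miR-146a arrays, against 7.33 with the vector. Its differences from the vector were 0.15 and 0.07 on the log2 scale, about as large as the gap of 0.08 between the miR-146a arrays. The mean difference of 0.11, or 1.08-fold, did not pass (limma adjusted p = 0.616), and the 95% interval of -0.27 to 0.49 takes in both lower and higher values.

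The 3 CXCR4 probe sets therefore gave the same direction and unequal sizes. In array 1, the difference of 217028_at was 0.38 larger than that of 209201_x_at and 0.52 larger than that of 211919_s_at, and in array 2 it was 0.34 and 0.65 larger. These gaps between probe sets exceed the gaps of 0.05 to 0.09 between the miR-146a arrays within a probe set. The gaps between probe sets also carry the spread of the single vector array, of which there is no estimate. In the naming of Affymetrix probe sets the suffix x marks sets with probes that may also bind other transcripts. The suffix s marks sets whose probes are shared by several transcripts, and 217028_at carries neither mark. The part of such binding in the unequal sizes was not tested. Averaged over its 3 probe sets, CXCR4 differed by 0.38 on the log2 scale (0.37 in array 1 and 0.39 in array 2).

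**Figure D1:**
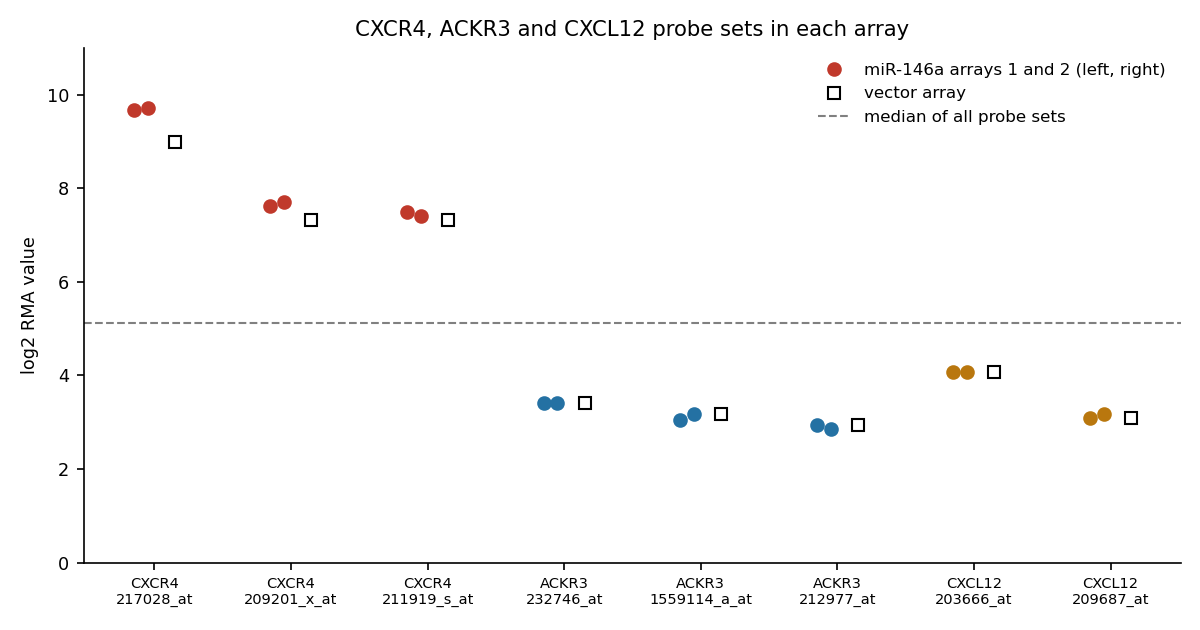
Log2 values (vertical axis) of the 8 probe sets of CXCR4, ACKR3 and CXCL12 in each array: filled circles are miR-146a arrays 1 and 2, the open square is the vector array, and the dashed line is the median signal of all probe sets, 5.13. The CXCR4 circles sit above the square in all 3 probe sets, most clearly in 217028_at, while the ACKR3 and CXCL12 values lie between 2.86 and 4.08, below the line.

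The genes whose pattern was most like that of 217028_at were found by the distance between pairs of differences (miR-146a 1 and 2, each minus the vector) over the 12444 genes with a probe set above the median, with the probe set of strongest signal for each gene. This measure rests on 3 arrays, and both differences share the vector array. HES1, a repressor that is switched on by Notch signalling, was nearest, with log2 values of 10.35 and 10.42 in the miR-146a arrays, against 9.70 with the vector, at a distance of 0.026. FAM43A followed, with 7.32 and 7.34 in the miR-146a arrays, against 6.65 with the vector (distance 0.031). The other 4 were the non-coding DLEU2, EDN1 (the vasoconstrictor peptide endothelin-1), BATF2 (a transcription factor induced by interferons) and FJX1. Their distances were 0.052 to 0.058 and their mean differences 0.66 to 0.72. BATF2 read 5.50 and 5.58 in the miR-146a arrays, against 4.88 with the vector, a value below the median signal of 5.13. It was therefore kept only through its miR-146a values. Further probe sets above the median differed by 0.56 for HES1 and 0.73 for EDN1, but by -0.20 for FAM43A and by 0.05 and 0.50 for DLEU2. Among the 12444 genes, 33 others were at least as high as CXCR4 in both arrays.

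**Figure D2:**
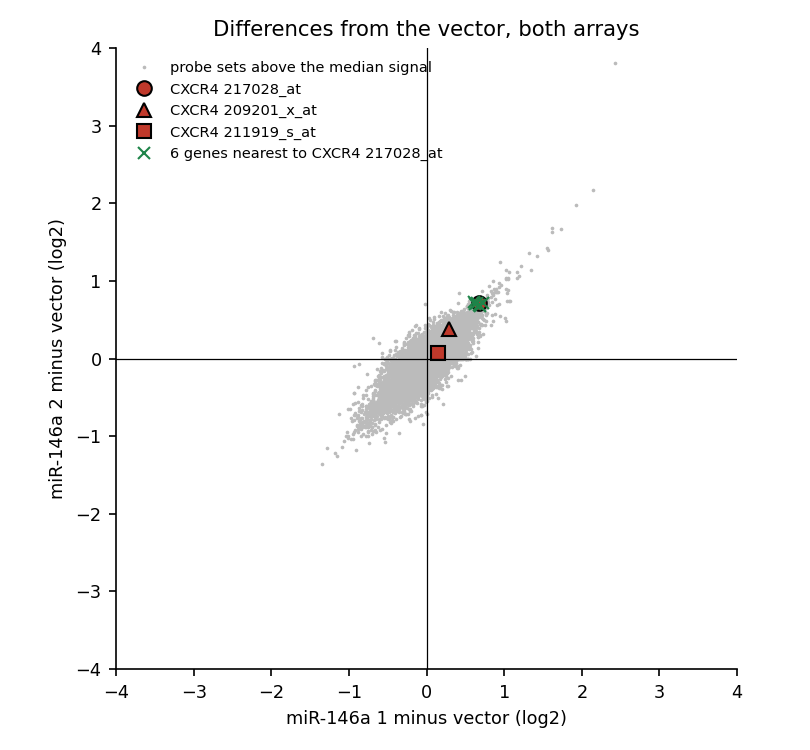
Difference from the vector in miR-146a array 1 (horizontal axis) and array 2 (vertical axis), both on the log2 scale, for the probe sets above the median signal (grey dots), the 3 CXCR4 probe sets (red symbols) and the 6 genes nearest to 217028_at (green crosses). Both axes share the single vector array; all 3 CXCR4 symbols lie above 0 on both axes, and 217028_at, at 0.67 and 0.72, lies at the upper edge of the cloud.

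ACKR3 was read by 3 probe sets, all below the median signal. Probe set 232746_at had the log2 value 3.41 in miR-146a arrays 1 and 2 and in the vector. Probe set 1559114_a_at read 3.04 and 3.17 in the miR-146a arrays, against 3.17 with the vector. Probe set 212977_at read 2.95 and 2.86 in the miR-146a arrays, against 2.95 with the vector. At each probe set at least 1 miR-146a value equalled the vector exactly, so the groups were not separate. The mean differences were 0.00, -0.07 and -0.04, none passed in limma (adjusted p = 0.791 for both that were not 0), and the average over the 3 probe sets was -0.04.

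CXCL12, the ligand of both receptors, was read by 2 probe sets, also below the median signal. Probe set 203666_at had the log2 value 4.08 in miR-146a arrays 1 and 2 and in the vector, and 209687_at read 3.08 and 3.17 in the miR-146a arrays, against 3.08 with the vector. The mean differences were 0.00 and 0.05, and the second did not pass in limma (adjusted p = 0.791). As for ACKR3, no reading set the groups apart.

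The dim probe sets limit what can be said of ACKR3 and CXCL12. Of their 10 readings in the miR-146a arrays 7 were exactly equal to the vector, and 2 of the 5 probe sets held 1 value in all 3 arrays, against 12.4% of all probe sets at or below the median. Of their 15 array values 11 were also the exact value of other probe sets in the same array, with 51 to 266 probe sets at the same value. Equal values between arrays were commonest at low signal: 14.8% of the dimmest decile of probe sets were equal in all 3 arrays, against 1.76% of the brightest. The SE of 0.00461 that limma gave 232746_at and 203666_at follows from these equal values. With the prior taken from unequal replicates over all probe sets, a setting that called 1.38% of probe sets higher and none of these 5, the 95% interval of each difference extended 0.27 to either side of it. No detection calls came with the values, so a level near background cannot be told from none, and an equal value at this signal does not show that the transcripts did not differ. Nor can fewer cells with a transcript be told from less RNA per cell in such bulk samples.

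**Figure D3:**
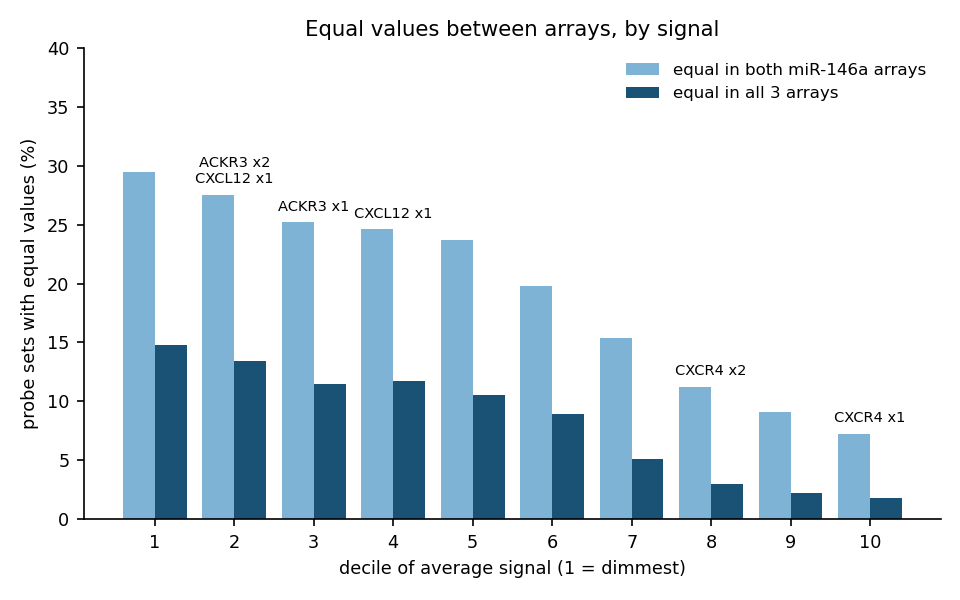
Share of probe sets (percent, vertical axis) with exactly equal values in both miR-146a arrays (light bars) and in all 3 arrays (dark bars), by decile of average signal from dimmest to brightest (horizontal axis), with the probe sets of the 3 genes marked above their decile. All ACKR3 and CXCL12 probe sets fall where 11.5% to 13.4% of probe sets were equal in all 3 arrays, and the CXCR4 probe sets where 2.93% or 1.76% were.

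The rest of the pathway was described from 7 lists of genes (111 in all, of which 106 had a probe set of their own and 81 lay above the median signal and were kept), each through its probe set of strongest signal. Limma called 0 of these 81 genes, while 9 had an unadjusted p under 0.05 as higher and 9 as lower. Of all 12444 genes kept, 14.3% had such a p as higher and 8.94% as lower. With the prior from unequal replicates above the median, 3 passed as higher (4.4% of all 12444 genes did) and 2 as lower (2.29% of all genes). Over all probe sets the same prior called 3 of the 81 genes, against 5 above the median. Adjusted p-values with this prior given below for single genes are from the setting above the median, chosen after earlier results were known. Across all 12444 genes 40.2% were higher in both arrays and 28.8% lower in both, with a median difference of 0.01 on the log2 scale.

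Among receptors, CXCR4 had few companions above the median. Of the 19 other chemokine receptor genes measured, 15 lay below the median, and of the 4 kept 1 was higher and 1 lower in both arrays, with a median difference of 0.08. CXCR5, a receptor of B cells, read 5.39 and 5.53 in the miR-146a arrays, against 5.29 with the vector, and CXCR3, a receptor of activated T cells, 5.50 and 5.49 in the miR-146a arrays, against 5.54 with the vector. Neither passed in limma (adjusted p = 0.667 and 0.247).

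Among the other ligands and the coreceptor of these receptors, 5 of 6 measured genes were kept, with 3 higher and 1 lower in both arrays and a median of 0.08. ADM, adrenomedullin, a peptide that ACKR3 also binds and clears, had log2 values of 8.89 and 8.86 in the miR-146a arrays, against 9.44 with the vector. Both values were below the vector, and the mean difference of -0.56 had a limma adjusted p of 0.0981, or an adjusted p of 0.00223 with the prior from unequal replicates. CXCL11, the other chemokine that binds ACKR3, read 5.34 and 5.26 in the miR-146a arrays, against 5.10 with the vector. That vector value is below the median signal of 5.13, so CXCL11 was kept only through its miR-146a values. CD74, which joins CXCR4 in the receptor for MIF, read 5.90 and 6.04 in the miR-146a arrays, against 5.81 with the vector. Neither of these passed with either prior.

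Of the 8 genes for cleavage or surface binding of CXCL12, 5 were kept, with 2 higher and 2 lower in both arrays and a median of -0.01. DPP4, the surface protease that trims and inactivates CXCL12, had log2 values of 8.95 and 9.24 in the miR-146a arrays, against 9.50 with the vector. Its mean difference was -0.41 (limma adjusted p = 0.586, and 0.038 with the prior from unequal replicates), and its further probe sets above the median differed by -0.82 and -0.85. The syndecans SDC4 and SDC1, heparan sulfate carriers that hold chemokines at the cell surface, differed by 0.11 and -0.01. A further SDC1 probe set above the median differed by 0.14.

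Of 27 measured genes of G proteins and migration effectors downstream of CXCR4, 22 were kept, with 8 higher and 8 lower in both arrays and a median of -0.02. RGS2, a regulator that ends G protein signalling, read 9.07 and 9.12 in the miR-146a arrays, against 8.60 with the vector. Its difference of 0.49 passed only with the prior from unequal replicates (adjusted p = 0.00561, against a limma adjusted p of 0.133). BCAR1, a docking protein at focal adhesions, read 7.79 and 7.67 in the miR-146a arrays, against 7.35 with the vector, passed in the same way (adjusted p = 0.0275), and had a further probe set at -0.18. GNAI1, an inhibitory G protein alpha subunit, differed by -0.28 and did not pass with either prior.

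For the genes that switch off, sort and degrade the receptor, all 19 measured were kept, with 4 higher and 10 lower in both arrays and a median of -0.06. DTX3L, a ubiquitin ligase that restrains the sorting of CXCR4 to lysosomes by ITCH and is also induced by interferons, had log2 values of 9.81 and 9.75 in the miR-146a arrays, against 9.16 with the vector. The difference of 0.62, or 1.54-fold, had a limma adjusted p of 0.134 and passed with the prior from unequal replicates (adjusted p = 0.0012). USP8, a deubiquitinase of endosomes, differed by -0.19, and HGS, a subunit of the endosomal sorting complex, by 0.20, and neither passed with either prior.

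All 12 listed genes that regulate CXCR4 transcription or the hypoxia pathway above it were kept, with 7 higher and 5 lower in both arrays and a median of 0.04. EGLN3 and EGLN1, oxygen sensors that mark HIF for destruction and are themselves raised by hypoxia, differed by -0.28 and -0.22. EGLN3 read 6.55 in both miR-146a arrays, against 6.83 with the vector, and its further probe set was at -0.36. ETS1, a transcription factor of migrating cells, read 7.79 in both miR-146a arrays, against 8.03 with the vector. None of the 12 passed with either prior.

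The promoter of CXCR4 is known for a site of NRF1, a nuclear respiratory factor on the list above, so that stretch is shown. It is from RefSeq (GRCh38.p14, chr2:136118188-136118217, minus strand), written 5′ to 3′, with the letters that match the motif in capitals.
CXCR4 promoter: gccccagcggCGCATGCGccgcgctcggag
The motif searched was GCATGCG, a core of NRF1 sites. It matched 2 times, once on each strand and overlapping, from 58 bases before the annotated start. Of the 35116 promoter windows of 300 bases, which run from 250 bases before a start to 50 after it, 3.91% held it on either strand, and of the 3 CXCR4 windows in the table only this one did. The same window held the hypoxia core GCGTG 1 time (36.5% of windows held it) and ACGTG not at all (21.4%). It held GGGCGG, the SP1 motif, 3 times (45.0%) and TATAAA 2 times, overlapping on the 2 strands, from 32 bases before the start (11.5%). Of these motifs the CXCL12 window held GGGCGG alone, and no window matched ACKR3.

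Of 15 measured genes reported elsewhere as miR-146a targets, CXCR4 set aside, 14 were kept, with 5 higher and 4 lower in both arrays and a median difference of 0.05. IRAK2, a kinase of interleukin-1 receptor signalling, differed by 0.29, EGFR by 0.15 and SMAD4 by -0.30 (-0.12 and -0.48 in arrays 1 and 2). The 5 further EGFR probe sets above the median ranged from -0.12 to 0.48 and the 2 of SMAD4 from -0.26 to 0.03. With all probe sets of a gene averaged the differences were 0.13 for IRAK2, 0.06 for EGFR and -0.11 for SMAD4. None of the 14 passed with either prior.

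**Figure D4:**
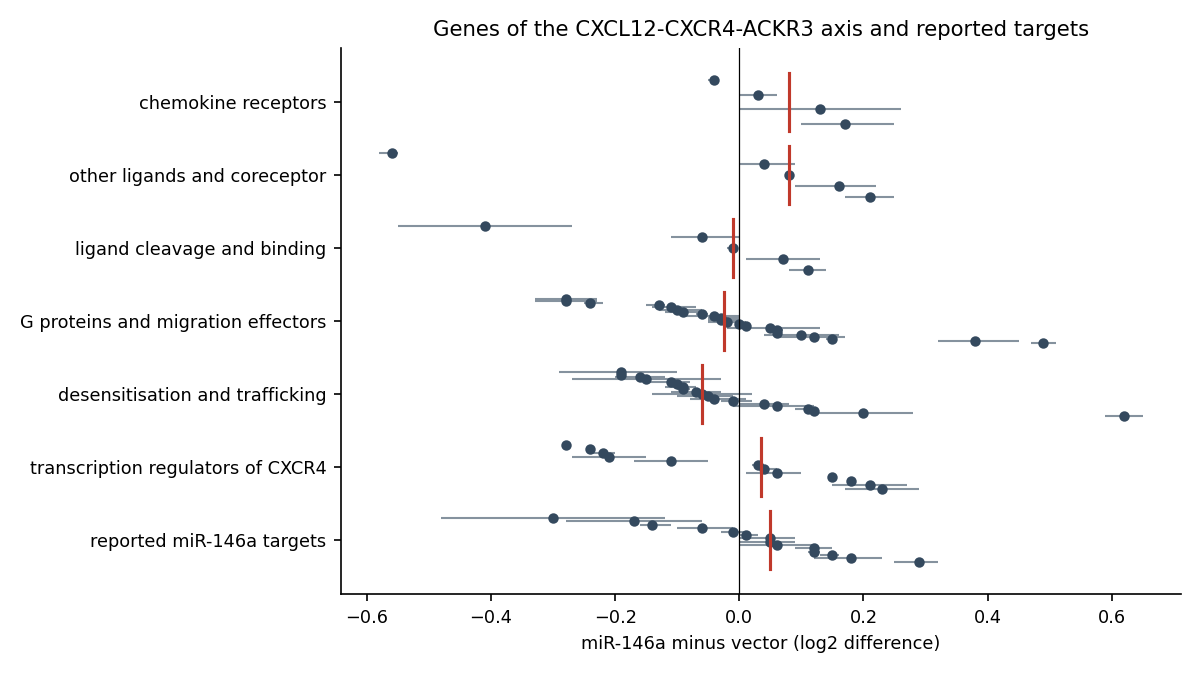
Mean log2 difference, miR-146a minus vector (horizontal axis), of each kept gene in 7 lists (rows): dots are genes, grey lines join the differences of the miR-146a arrays, and red bars are list medians. The medians lie between -0.06 and 0.08, with ADM at -0.56 and DTX3L at 0.62 standing farthest from 0.

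The labelled cell type was checked against its markers. Of 11 colon epithelial markers 10 were above the median signal, and of these 4 were higher and 5 lower in both arrays. KRT18, a keratin, had a log2 value of 14.22 in both miR-146a arrays, against 14.21 with the vector, and EPCAM, an epithelial adhesion protein, read 12.93 and 12.96 in the miR-146a arrays, against 12.95 with the vector. CDH17, an intestinal cadherin, read 5.39 and 5.24 in the miR-146a arrays, against 5.86 with the vector. Its difference of -0.54 had a limma adjusted p of 0.284 and was the 1 call of this list with the prior from unequal replicates (adjusted p = 0.00376). KRT20, a keratin of differentiated colon cells, differed by -0.24 and did not pass with either prior. The summed log2 values of the epithelial list were 107.6 and 107.5 in the miR-146a arrays, against 108.5 with the vector.

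Other cells that make CXCL12 or CXCR4 were looked for in the same way. Above the median were 3 of 9 fibroblast, 1 of 5 endothelial and 3 of 8 leukocyte markers. The summed log2 values of the leukocyte list were 40.2 and 39.8 in the miR-146a arrays, against 40.3 with the vector, those of the fibroblast list 41.3 and 41.7 in the miR-146a arrays, against 41.9 with the vector, and those of the endothelial list 21.6 and 21.8 in the miR-146a arrays, against 21.6 with the vector. Of the 3 leukocyte markers kept 1 was higher and 0 were lower in both arrays. It was CD14, a monocyte antigen, at 6.41 and 6.23 in the miR-146a arrays, against 6.15 with the vector, a difference of 0.17 that did not pass in limma (adjusted p = 0.774). PTPRC, the pan-leukocyte antigen CD45, lay below the median, at 3.36 and 3.30 in the miR-146a arrays, against 3.43 with the vector. The leukocyte marker of strongest signal was CORO1A, at 7.35 and 7.28 in the miR-146a arrays, against 7.30 with the vector. Of the fibroblast markers it was COL1A1, at 7.17 in both miR-146a arrays, against 7.33 with the vector. The part of other cells in the CXCR4 values was not tested.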

How the data were processed

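The deposited table holds log2 values for every probe set of 3 Affymetrix arrays of biotin-labelled cRNA, made by the authors with RMA (background correction, normalization between arrays and a summary of the probes of each set), per the submitters' processing notes. The version of RMA, and any other arrays processed along, were not given in the sources used. Arrays were grouped by title. Names come from the platform annotation, with symbols updated by Entrez number: 41091 had 1 gene, 1801 several and 11721 none here, and those with several were not named.

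Each difference is the mean log2 value of the miR-146a arrays less that of the vector. Limma 3.58.1 (R 4.3.3; lmFit, eBayes, two-sided, Benjamini-Hochberg over all 54613 probe sets, threshold 0.05) has 1 residual degree of freedom, which the miR-146a pair provides; the same spread is assumed for the vector. As 19.3% of probe sets are exactly equal (tolerance 0) in both miR-146a arrays, the prior has 0.455 degrees of freedom. Taken from unequal pairs, it has 15.1 above the median signal of 5.13 and infinitely many over all probe sets. Fits were tested on simulated data. The number of arrays limits the precision. Genes named are the members, the 6 nearest to CXCR4 and, per list, up to 3 that differ most in 1 direction in both arrays. EPCAM, KRT18, CDH17, KRT20, CD14, PTPRC, CORO1A and COL1A1 were picked out after values were seen. The members and lists were chosen with earlier results of these data known. Alternatives were other priors, filters, normalizations, ways to join probe sets, and leaving out each miR-146a array.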

Additional observations from a re-analysis of the deposited data

How the results depend on the processing

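Leaving out 1 miR-146a array gives a difference with no test, and the CXCR4 probe sets then ranged from 0.67 to 0.72 (217028_at), 0.29 to 0.38 (209201_x_at) and 0.07 to 0.15 (211919_s_at). No setting turned the direction of a CXCR4 probe set. With the prior from unequal replicates the call of 217028_at was gained at a difference of 0.69 (adjusted p = 7.7e-05 over all probe sets, and 0.000454 above the median, a combination added after the data were seen), and its adjusted p was 0.109 to 0.258 in the other fits. The count of probe sets called went to 1815 and 2436 in those 2 settings and stayed at 0 with a filter, an intensity trend, cyclic loess, quantile normalization or 1 probe set per gene. Of the 81 list genes, 3 and 5 were called in them. These settings change the variance given to each probe set and the degrees of freedom of its test (the second also the probe sets tested). For 217028_at the SE rose from 0.0376 to 0.14 and 0.1 in them, so its lower p-values came with more degrees of freedom. In the setting over all probe sets the prior had infinite degrees of freedom. Every probe set there was given the same SE of 0.14, whatever its own spread. Averaging a gene's probe sets gave 0.38 for CXCR4, -0.04 for ACKR3 and 0.02 for CXCL12, since the average takes in probe sets that differ less or more. The median difference over the 81 list genes, 0.00, was -0.008 with probe sets averaged and 0.00 to 0.005 without 1 array. No paired analysis was possible because there was only 1 vector array. Background correction could not be varied from the deposited values, and without detection calls the ACKR3 and CXCL12 signals cannot be set against background.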
